A study of Mus musculus with 6 samples.

Results

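Imprinted genes are transcribed mainly from the copy inherited from a single parent. The 10 described here are Slc38a4, Grb10, Airn, Igf2r, Plagl1, Zdbf2, Peg3, Snrpn, Sfmbt2 and Gnas, which lie apart from the imprinted domains of distal chromosome 7, Dlk1-Dio3, Peg10 and Mest. They were chosen by symbol from 55471 gene identifiers, and every symbol matched an identifier. Slc38a4 and Grb10 head the set because they were much lower in the induced libraries, so the difference between the groups is given for all 10 as a description and without a test. The counts do not separate maternal from paternal reads.

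The 6 RNA-seq libraries came from mouse epiblast stem cells, pluripotent cells that resemble the epiblast around gastrulation, grown as embryoid bodies in serum for 2 days. The 3 libraries labelled Mixl1 KO come from cells described only as a knockout of Mixl1, a homeobox gene of the primitive streak. The 3 libraries labelled Mixl1 induced come from Mixl1-inducible cells given doxycycline at 1 µg/mL over the last 24 h. Cells of both groups had been maintained with 10 ng/mL bFGF and 20 ng/mL Activin A on irradiated mouse fibroblast feeders, and were aggregated for 24 h to form the embryoid bodies. The labels do not give the strain, passage or sex of the lines, the number of clones, the altered part of Mixl1, or whether the knockout cells received doxycycline, so line, drug and Mixl1 cannot be told apart. The labels also do not say whether the replicates were separate cultures, and the p-values below then cover only the spread of these 6 samples, which may be technical.

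An imprint is set in the germ line, mostly as DNA methylation at an imprinting control region, and is kept through the early wave of demethylation by factors such as ZFP57 and TRIM28. Several imprinted domains are controlled by a long noncoding RNA made from the unmethylated copy, as at Igf2r, where paternal Airn transcription silences Igf2r in cis. A smaller class, which includes Slc38a4 and Sfmbt2, has been linked to histone methylation inherited from the oocyte. Imprinted genes as a class are known for effects on growth, placental transport and metabolism.

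Each library held between 17490426 and 21026423 gene reads. Mixl1 was at 36.8 to 42.7 CPM (read counts relative to the scaled library size) in the knockout libraries and at 427.2 to 441.1 CPM in the induced libraries. All 10 epiblast markers listed for the cells were detected, with a summed level of 2226 to 2440 CPM in the knockout and 2621 to 2803 CPM in the induced group. All 10 passed the test (edgeR, adjusted p of at most 0.05), 7 higher and 3 lower. Over all tested genes 62.6% passed, 31.0% as higher and 31.6% as lower. Of these markers, Pou5f1 fell from 1294 to 807.1 CPM, while Tdgf1 rose from 254.0 to 760.6 CPM and Sox2 from 51.7 to 187.6 CPM. The 10 fibroblast markers, which feeder cells would carry, summed to 857.2 to 1013 CPM and 655.7 to 839.8 CPM, with 3 higher and 4 lower. Of these, Pdgfrb fell from 110.6 to 22.9 CPM and Loxl1 from 20.4 to 7.52 CPM, and Col1a2 rose from 95.1 to 201.9 CPM. The 10 extraembryonic endoderm markers summed to 546.8 to 598.2 and 208.4 to 259.0 CPM, but 8 of them averaged under 1 CPM, Ttr and Hnf4a had no read, and Apoe made up most of the sum. The 10 trophoblast markers summed to 407.8 to 479.7 and 196.0 to 203.6 CPM, with no read of Prl3d1 and 3 of the 7 tested higher and 3 lower. Cdx2 fell from 180.3 to 13.2 CPM and Tfap2c from 145.4 to 39.5 CPM, and Gata3 rose from 2.87 to 40.6 CPM. These single markers were chosen knowing their values. The part of these cell types in the results below was not tested, and in bulk RNA fewer cells of a type and less RNA per cell cannot be told apart.

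Slc38a4, Grb10 and Airn were close to absent in the induced libraries, Zdbf2 was several-fold higher there, and Igf2r, Snrpn, Peg3, Gnas and Sfmbt2 differed by less than 2-fold. Plagl1 was at the limit of detection in both groups. In all 10 genes the knockout and induced libraries were fully separated, as in 67.1% of all 15091 tested genes. A filter on low counts kept 9 of the 10, all but Plagl1. Slc38a4 and Airn passed it through their knockout libraries. An estimated fold of at least 2 was seen downwards for 3 members, against 9.69% of all tested genes, and upwards for 1, against 6.49%. Of all tested genes 62.6% passed the test (edgeR, adjusted p of at most 0.05), 31.0% as higher and 31.6% as lower in the induced group. Since the genes were chosen on this contrast, nothing is read from these counts.

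**Figure D1:**
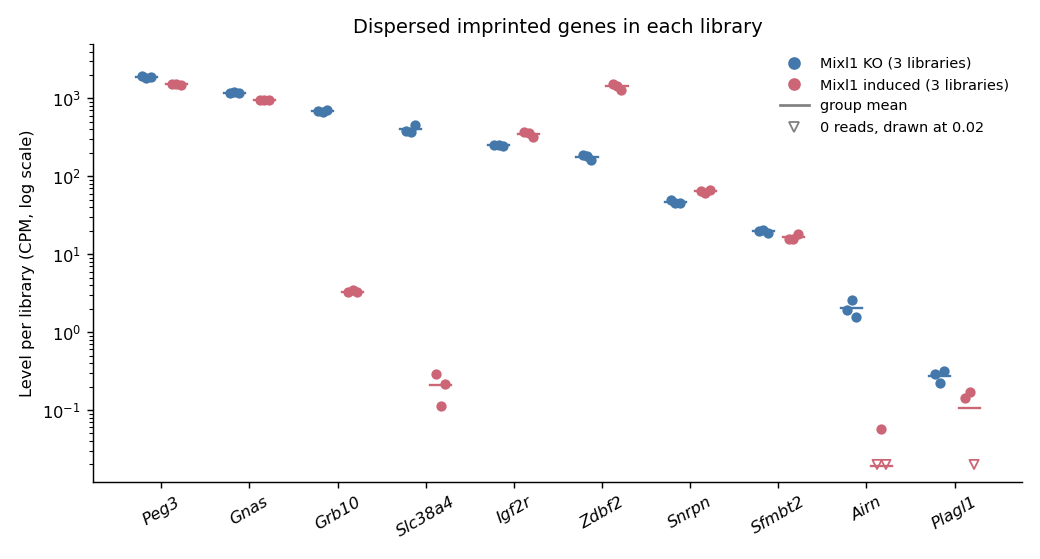
Level of each of the 10 imprinted genes in each library, as CPM on a log axis, with blue points for the 3 Mixl1 KO libraries, red points for the 3 Mixl1 induced libraries, and a bar at each group mean. Slc38a4, Grb10 and Airn sit orders of magnitude lower in the induced libraries, Zdbf2 sits higher, and open triangles drawn at 0.02 mark libraries with 0 reads.

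Slc38a4 encodes a system A transporter of neutral amino acids and is expressed from the paternal copy. The gene (ENSMUSG00000022464.14) spans mm10 chromosome 15 between 96994820 and 97055956 (minus strand). The knockout libraries held 7882, 6788 and 8753 reads, or 384.5, 374.1 and 460.7 CPM. The induced libraries held 6, 2 and 4 reads, or 0.289, 0.114 and 0.218 CPM. Every knockout library was thus high and every induced library close to empty. The mean went from 406.4 ± 47.3 (SD, n = 3) to 0.207 ± 0.0880 CPM (SD, n = 3), which is 0.0510% of the knockout level. On reads alone the knockout-to-induced ratio was 1920, with a 95% interval of 1100 to 3710 that covers counting error only.

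Grb10 encodes an adaptor that binds the insulin and IGF1 receptors and restrains growth. It is expressed from the maternal copy in most tissues and from the paternal copy in neurons, through different promoters. The gene (ENSMUSG00000020176.17) spans chromosome 11 between 11930508 and 12038683 (minus strand). Its counts were 14258, 12016 and 13495 reads in the knockout libraries and 67, 60 and 60 reads in the induced libraries. In CPM these were 695.6, 662.2 and 710.3 against 3.23, 3.43 and 3.28. Both groups were tight, with coefficients of variation of 3.58% and 3.14%, and far apart. The mean went from 689.4 ± 24.7 to 3.31 ± 0.104 CPM (SD, n = 3), 208.2-fold lower. The edgeR estimate of the log2 fold change, induced over knockout, was -7.70 (SE 0.071). Unlike Slc38a4, Grb10 kept a countable level in each induced library. Ranked by log2 fold change, Slc38a4 was in position 1, Grb10 in position 9 and Airn in position 17 from the lowest of the 15091 tested genes.

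The annotated starts of these genes differ in base composition. Shown are the windows at the most upstream annotated Slc38a4 start and at the upstream Grb10 start, from 250 bases before to 50 bases after the start, with CG dinucleotides, the sites of DNA methylation, in capitals. Sequences are from RefSeq on GRCm38.p6, 5′ to 3′ on the strand of the gene. All 10 symbols matched this table, with 21 windows.
Slc38a4, chr15:97055907-97056206, minus strand: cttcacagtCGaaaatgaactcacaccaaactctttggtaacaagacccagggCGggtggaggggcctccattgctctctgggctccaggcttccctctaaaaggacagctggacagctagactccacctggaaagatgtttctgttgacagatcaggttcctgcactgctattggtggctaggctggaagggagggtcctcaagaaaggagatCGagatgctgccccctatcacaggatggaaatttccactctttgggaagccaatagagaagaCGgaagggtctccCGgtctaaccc
Grb10, chr11:12037371-12037670, minus strand: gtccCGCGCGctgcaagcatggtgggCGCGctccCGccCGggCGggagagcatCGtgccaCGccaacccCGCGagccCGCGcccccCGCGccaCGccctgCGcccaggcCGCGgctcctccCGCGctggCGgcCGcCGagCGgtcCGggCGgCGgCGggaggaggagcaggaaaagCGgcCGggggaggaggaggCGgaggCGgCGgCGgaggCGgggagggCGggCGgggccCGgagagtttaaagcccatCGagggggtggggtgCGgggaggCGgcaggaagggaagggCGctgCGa
The Slc38a4 window held 5 CG dinucleotides and the Grb10 window 45, against a median of 7 over 32851 windows of 300 bases. The other Slc38a4 windows, at 97031164 and 97020310, held 5 each, and the downstream Grb10 window, at 12027922, held 9. The counts do not say which of these starts was used. ZFP57 binds the methylated hexamer TGCCGC. On either strand these letters occurred in 11.6% of all windows and in 4 of the 21 windows of the members, belonging to Grb10, Plagl1, Zdbf2 and Snrpn. A match describes letters, not a binding site.

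Airn and Igf2r share a locus on chromosome 17. Igf2r, from 12682406 to 12769664 on the minus strand, encodes the mannose 6-phosphate receptor that carries IGF2 to lysosomes, and is expressed from the maternal copy. Airn, from 12741311 to 12860136 on the plus strand, starts inside the Igf2r body and runs out of it across the Igf2r promoter. The annotated exons of the pair share 0 bases, and the counts used here separate the strands. The Airn transcript is long and mostly unspliced, while these poly(A) libraries were counted on annotated exons, which total 3597 bases for Airn.

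Airn reads numbered 40, 47 and 30 in the knockout libraries and 0, 1 and 0 in the induced libraries. These correspond to 1.95, 2.59 and 1.58 CPM against 0, 0.0571 and 0 CPM. Over the groups, 117 reads stood against 1, a knockout-to-induced ratio of 115 with a 95% counting interval of 20.2 to 4570. The unstranded counts were close to these, with 40, 47 and 30 against 1, 1 and 0 reads. The single read on the strand opposite to Airn was in induced replicate 1.

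Igf2r was higher where Airn was lower. It had 5212, 4614 and 4684 reads in the knockout libraries and 7745, 6216 and 5802 in the induced libraries. In CPM the knockout libraries were close together, at 254.3, 254.3 and 246.5, while the induced libraries spread from 316.8 through 355.2 to 373.4. The means were 251.7 ± 4.46 and 348.5 ± 28.9 CPM (SD, n = 3), a 1.38-fold difference (0.47 on the log2 scale, SE 0.0523). For every 1000 Igf2r reads, the knockout libraries held 7.67, 10.2 and 6.41 Airn reads and the induced libraries 0, 0.161 and 0. Reads on the Airn strand over Igf2r exons were few in both groups, 15 against 10 in all.
Airn, chr17:12741061-12741360, plus strand: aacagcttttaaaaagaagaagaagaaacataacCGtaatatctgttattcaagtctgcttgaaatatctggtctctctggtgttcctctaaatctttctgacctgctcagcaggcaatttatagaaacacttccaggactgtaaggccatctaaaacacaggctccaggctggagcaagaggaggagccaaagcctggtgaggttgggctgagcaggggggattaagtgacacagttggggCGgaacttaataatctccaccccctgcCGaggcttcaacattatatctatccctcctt
Igf2r, chr17:12769657-12769956, minus strand: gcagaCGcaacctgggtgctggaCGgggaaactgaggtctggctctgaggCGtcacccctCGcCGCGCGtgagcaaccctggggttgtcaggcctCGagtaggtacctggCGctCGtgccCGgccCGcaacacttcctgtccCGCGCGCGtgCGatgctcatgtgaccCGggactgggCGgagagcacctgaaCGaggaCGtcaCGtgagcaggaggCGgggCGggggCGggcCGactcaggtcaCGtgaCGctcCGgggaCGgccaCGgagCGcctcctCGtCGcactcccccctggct
These start windows are shown because the pair differed in opposite directions. The Airn window held 3 CG dinucleotides, with fewer in 23.3% of all windows, and the Igf2r window 34, more than 92.3% of all windows. Neither held TGCCGC.

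Zdbf2, a paternally expressed gene for a DBF-type zinc finger protein, is known for an upstream transcript that in the early embryo sets its later expression. The gene spans chromosome 1 between 63273265 and 63314576 (plus strand). The knockout libraries held 3843, 3277 and 3064 reads (187.5, 180.6 and 161.3 CPM) and the induced libraries 31974, 25472 and 23382 reads (1542, 1456 and 1277 CPM). Every induced library was far above every knockout library. The mean was 8.07-fold higher, at 1425 ± 135.1 against 176.4 ± 13.6 CPM (SD, n = 3), or 3.01 on the log2 scale (SE 0.0734). In rank it was in position 183 from the highest of all tested genes, and was the member with the largest difference upwards.
Zdbf2, upstream start, chr1:63200108-63200407, plus strand: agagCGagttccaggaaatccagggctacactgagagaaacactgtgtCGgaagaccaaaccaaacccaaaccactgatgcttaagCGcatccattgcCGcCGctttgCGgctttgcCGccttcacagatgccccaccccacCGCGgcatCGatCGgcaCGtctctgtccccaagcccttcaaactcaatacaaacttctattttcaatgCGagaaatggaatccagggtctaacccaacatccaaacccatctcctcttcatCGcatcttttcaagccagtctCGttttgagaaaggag
Zdbf2, gene start, chr1:63273019-63273318, plus strand: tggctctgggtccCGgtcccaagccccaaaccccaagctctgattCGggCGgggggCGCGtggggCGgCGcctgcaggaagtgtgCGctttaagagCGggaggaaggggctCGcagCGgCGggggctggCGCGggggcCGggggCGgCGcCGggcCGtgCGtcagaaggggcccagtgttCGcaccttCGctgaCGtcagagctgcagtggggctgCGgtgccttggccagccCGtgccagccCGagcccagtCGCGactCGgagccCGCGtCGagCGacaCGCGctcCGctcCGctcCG
Both start windows are shown because a count over the gene does not say which start was used. The upstream window lies within the body of Gpr1, on the strand opposite to it. It held 15 CG dinucleotides and 3 copies of TGCCGC on either strand, the most of any member window, and the window at the gene start held 38 and 0.

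Gnas encodes the stimulatory G protein alpha subunit, from a locus with several promoters. Upstream promoters give Nesp, from the maternal copy, and the extra-large form, from the paternal copy, and Nespas runs in antisense from the paternal copy. Gnas spans chromosome 2 between 174284320 and 174346744 (plus strand). With the strands separated, the counts were 23954, 21672 and 22490 in the knockout libraries and 19730, 16648 and 17722 in the induced libraries. The levels were 1182 ± 12.9 and 956.7 ± 9.47 CPM (SD, n = 3), or -0.31 on the log2 scale (SE 0.0423). Each induced library was lower than each knockout library.

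Counted without regard to strand, Gnas went the other way. The unstranded column held 355, 360 and 315 reads in the knockout libraries and 1280, 1103 and 956 in the induced libraries, a log2 fold change of 1.73 with a standard error of 0.0806. The authors' deposited table gives 1.73 with a standard error of 0.0949, and its mean count of 727.6 differed by 0.0408% from a DESeq2 run on the unstranded column. The columns differ in what they count. Gm20721, a predicted gene on the opposite strand, has 1469 of its 1484 exon bases inside Gnas exons, and Nespas shares 988 exon bases with Gnas. An unstranded read there belongs to more than 1 gene and is dropped as ambiguous, which leaves reads from the other 8729 of 11186 Gnas exon bases. Reads of the Gnas strand over Gm20721 exons alone numbered 66513 in the knockout and 50780 in the induced libraries, most of the 68116 and 54100 reads of Gnas. For the other members, the deposited mean count differed from the unstranded run by at most 0.0427%. Except for Plagl1, which was not tested, their strand-resolved and unstranded log2 fold changes had the same sign.

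Reads at the upstream end of the locus differed by strand. Nespas, on the minus strand, had 43, 33 and 49 reads in the knockout libraries and 119, 103 and 116 in the induced libraries, and rose from 2.17 ± 0.385 to 5.99 ± 0.311 CPM (SD, n = 3), which is 1.46 on the log2 scale (edgeR adjusted p = 1.24e-07). Reads of the Gnas strand over Nespas exons, where Nesp lies opposite to it, numbered 135, 89 and 127 in the knockout libraries and 0, 0 and 0 in the induced libraries. With a floor of 3 reads over the group, this readout was at least 115-fold lower in the induced group. The unstranded Gnas reads, 3.29-fold higher in the induced group on the same scaling, come from exons outside Nespas and Gm20721, and the counts do not place them further. The total over Gnas therefore combined readouts that were higher and lower in the induced libraries. How many of the reads over Nespas exons it includes is not known, since 988 of 3143 Nespas exon bases are shared with Gnas.

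**Figure D2:**
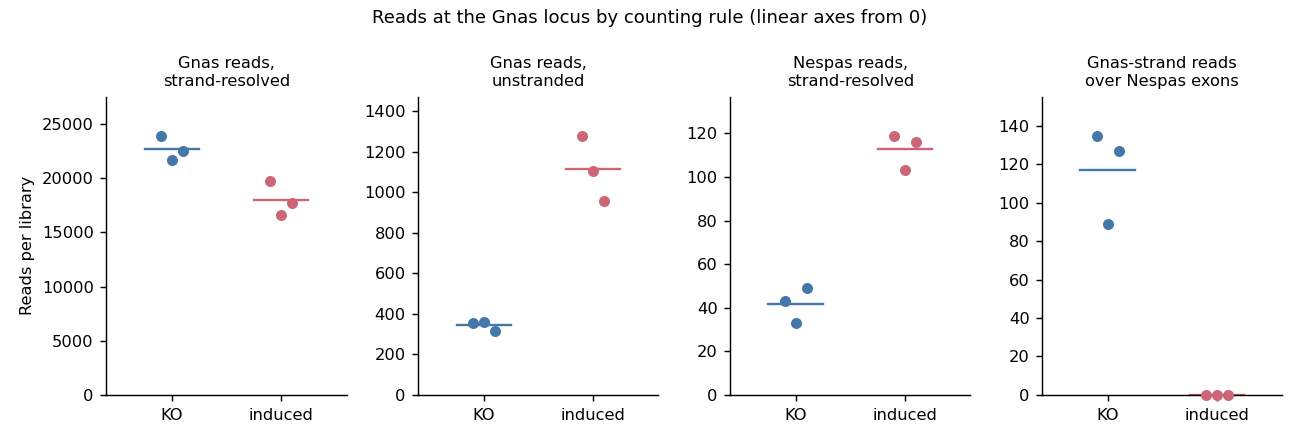
Reads per library at the Gnas locus under 4 counting rules, with linear axes from 0, blue points for Mixl1 KO and red points for Mixl1 induced libraries, and bars at the means. Strand-resolved Gnas reads were lower in the induced libraries, unstranded Gnas reads and Nespas reads were higher, and reads of the Gnas strand over Nespas exons were 0 in all 3 induced libraries.

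Peg3, a paternally expressed zinc finger gene on chromosome 7 (6703892 to 6730431, minus strand), was the most abundant member in the knockout group. The knockout libraries were at 1944, 1853 and 1895 CPM and the induced libraries at 1538, 1530 and 1487 CPM. The groups stood clearly apart with a small difference, a log2 fold change of -0.32 and a standard error of 0.0439.

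Snrpn encodes the spliceosomal protein SmN and is a paternally expressed gene of the Prader-Willi region. On chromosome 7 (59982495 to 60140219, minus strand), it was at 50.1, 44.9 and 45.9 CPM in the knockout libraries and 64.6, 61.7 and 67.0 CPM in the induced libraries. Each induced library was above each knockout library, with a log2 fold change of 0.46 and a standard error of 0.0588. Part of the locus is missing from this count: all 216 annotated exon bases of Snurf and 589 of the 2159 of Snrpn lie also in a joint gene model, Gm38393, on the same strand, and reads there are ambiguous. Snurf accordingly had 0 reads in each library.

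Sfmbt2, a polycomb-group gene on chromosome 2 (10370510 to 10595253, plus strand) that is imprinted in extraembryonic tissue and hosts a microRNA cluster in an intron, had 408, 369 and 357 reads against 328, 275 and 329. In CPM it was at 19.9, 20.3 and 18.8 in the knockout and 15.8, 15.7 and 17.96 in the induced libraries. Knockout replicate 3 and induced replicate 3 lay nearest to each other. The difference was -0.25 on the log2 scale (SE 0.0854).

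Plagl1, a zinc finger gene on chromosome 10 (13060504 to 13131694, plus strand) that restrains the cell cycle, had 6, 4 and 6 reads in the knockout libraries and 3, 3 and 0 in the induced libraries. Over the groups, 16 reads against 6 gave a knockout-to-induced ratio of 2.62, with a 95% counting interval of 0.972 to 8.16, and a difference was not detectable at this depth.

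Per kilobase of annotated exon, the order of the members changed between the groups. In the knockout group Peg3 was highest at 142.4 RPKM (CPM per kilobase of exon), followed by Gnas at 105.7, Slc38a4 at 95.4, Grb10 at 75.8, Igf2r at 27.0, Snrpn at 21.7, Zdbf2 at 13.9, Sfmbt2 at 2.16, Airn at 0.567 and Plagl1 at 0.0353. In the induced group Peg3 at 113.9 and Zdbf2 at 112.5 led, with Gnas at 85.5. Peg3 and Zdbf2 did not differ beyond the spread of Zdbf2 over the induced libraries, which was 9.48% of its mean. Slc38a4, in place 3 of the knockout group, was in place 8 of the induced group at 0.0487. Exon lengths join all annotated transcripts, so these levels are approximate.

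Genes near the members passed the test about as often as all genes. Within 500 kb of a member lay 71 tested genes that are not members, and 43 of them passed (60.6%, against 62.6% of all tested genes; edgeR, adjusted p of at most 0.05), 23 higher and 20 lower. Their median log2 fold change was 0.05, beside 0.004 over all tested genes. Around Slc38a4, 4 of the 12 genes within 500 kb were tested, the others being too low. None of the 3 that passed had changed by 2-fold or more. Slc38a1 and Slc38a2, related transporter genes 352 and 295 kb away, were at -0.01 and 0.21 on the log2 scale, and only Slc38a2 passed. On the other side Amigo2, a cell adhesion gene 188 kb away, fell from 24.3 to 14.1 CPM. The tested genes, the nearest of them 188 kb away, thus differed by less than 2-fold where Slc38a4 was down to 0.0510% of its knockout level.

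Around Grb10, 5 neighbours were tested, of which 1 rose and 2 fell. Ddc, the aromatic amino acid decarboxylase gene next to Grb10 and imprinted in heart, rose from 1.37 ± 0.186 to 3.21 ± 0.932 CPM (SD, n = 3), which is 1.22 on the log2 scale (edgeR adjusted p = 0.000123). Cobl, an actin nucleator gene 198 kb away on the other side, fell from 5.77 to 0.935 CPM (log2 fold change -2.59). Grb10 was thus flanked by a gene that rose and a gene that fell.

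Around Airn, 10 neighbours were tested, of which 8 fell and none rose. Over all tested genes 31.6% fell and 31.0% rose. Only 3 of the 8 fell by 2-fold or more, and the others fell by at most 0.37 on the log2 scale. Around Igf2r, whose neighbours are mostly the same genes, 8 of 11 fell and 1 rose, Agpat4, a lipid acyltransferase gene 463 kb away (0.26 on the log2 scale, edgeR adjusted p = 0.000392). Agpat4 was picked after its value was seen. Mas1, a receptor gene on the opposite strand that overlaps the far end of Airn, fell from 4.01 ± 0.565 to 0.332 ± 0.238 CPM (SD, n = 3), which is -3.62 on the log2 scale (edgeR adjusted p = 2.22e-09). Its reads numbered 69, 80 and 81 in the knockout and 2, 10 and 6 in the induced libraries. Mas1 passed the filter on low counts through its knockout libraries. Without induced replicate 2 the Mas1 estimate was -4.24. No read of the Airn strand fell on Mas1 exons in any library. Pnldc1, a gene for trimming of piRNAs 28.6 kb beyond Airn, fell from 3.39 to 1.18 CPM. The nearest tested gene on the far side of Igf2r, the lncRNA 4732491K20Rik, did not pass (log2 fold change -0.34, adjusted p = 0.401). Slc22a2 and Slc22a3, which Airn silences in placenta, were too low to be tested. Slc22a2 had 4, 1 and 0 reads in the knockout and 0 in each induced library, and Slc22a3 had 2, 0 and 1 against 10, 13 and 2.

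Around Zdbf2, 11 neighbours were tested, of which 8 rose and none fell, where 31.0% of all tested genes rose and 31.6% fell. Of the 8, 4 had changed by 2-fold or more. Gpr1, a chemerin receptor gene from which the upstream Zdbf2 transcript starts, rose from 0.294 ± 0.0727 to 1.98 ± 0.759 CPM (SD, n = 3), which is 2.72 on the log2 scale (edgeR adjusted p = 1.91e-06). Its reads numbered 7, 6 and 4 in the knockout and 45, 46 and 21 in the induced libraries. Gpr1 passed the filter on low counts through its induced libraries. Adam23, an adhesion gene 131 kb downstream, rose from 8.98 to 22.2 CPM (log2 fold change 1.31).

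Among the neighbours of the other members, Zim1 and Usp29, imprinted genes beside Peg3, were at -0.16 and 0.32 on the log2 scale, and only Usp29 passed (adjusted p = 0.000236). Snhg14, the host transcript of small nucleolar RNAs downstream of Snrpn, did not pass at 0.06. Of 6 tested genes near Sfmbt2, 2 rose and 1 fell, all 3 by 2-fold or more. Itih5, 114 kb from Sfmbt2, fell by 1.14 on the log2 scale, and Gata3, 480 kb away, rose by 3.83. Of 10 tested genes near Gnas, 4 rose and 3 fell, and 3 changed by 2-fold or more. Npepl1, 161 kb from Gnas, rose from 15.0 to 35.6 CPM and Nelfcd, on the other side of Gnas, fell by 0.16. Edn3, 414 kb from Gnas, rose by 1.58 on the log2 scale. Beside Plagl1, Sf3b5 fell by 0.20 and Ltv1 rose by 0.16. Epp13, Aurkc, Gata3 and Edn3 were picked after their values were seen.

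**Figure D3:**
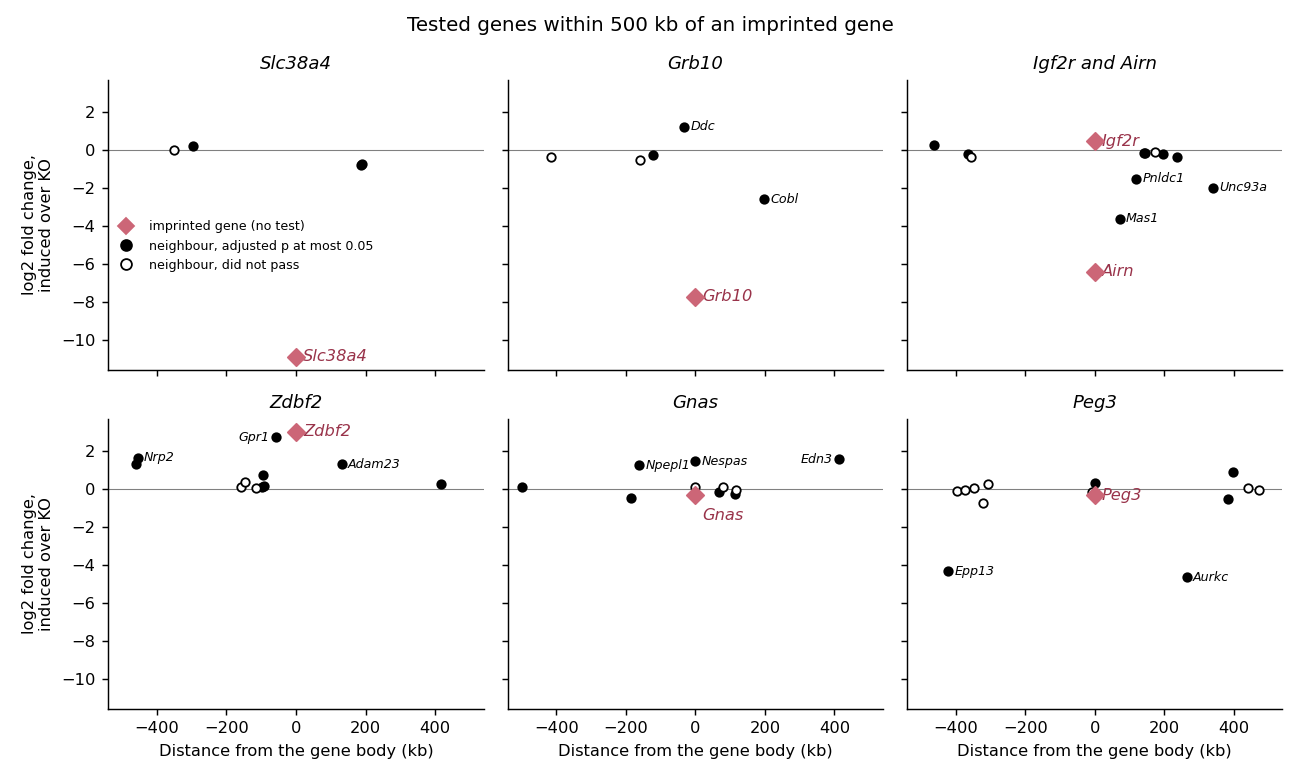
Log2 fold change, induced over KO, of tested genes within 500 kb of 6 loci, by distance in kb from the body of the imprinted gene (from Igf2r in the panel shared with Airn, where both are drawn at 0). Red diamonds are the imprinted genes, filled points are neighbours with an adjusted p of at most 0.05 and open points are neighbours that did not pass; the 4 neighbours of Slc38a4 lie between -0.79 and 0.21.

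Other imprinted genes outside the named domains went both ways. Of 32 listed genes 25 were tested and 18 passed (72.0%, against 62.6% of all tested genes; edgeR), 11 higher and 7 lower, with a median log2 fold change of 0.15. Gpr1, Nespas and Ddc, described above, were among those that rose. So did Gab1, a docking protein gene, from 32.2 to 53.9 CPM and Smoc1, a matrix protein gene, from 7.82 to 16.1 CPM. Both are paternally expressed in extraembryonic tissue through the pathway assigned to Slc38a4. Jade1, of the same class, fell from 37.7 to 24.7 CPM. Of this class, then, Slc38a4, Sfmbt2 and Jade1 were lower and Gab1 and Smoc1 higher.

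H13, a signal peptide peptidase gene, fell from 127.7 ± 5.93 to 72.3 ± 2.88 CPM (SD, n = 3), which is -0.82 on the log2 scale (edgeR adjusted p = 5.69e-12). Mcts2, a paternally expressed retrogene in an H13 intron, was picked after its value was seen and rose from 17.2 to 26.7 CPM (log2 fold change 0.64, adjusted p = 3.06e-07). Decorin, Dcn, also a fibroblast gene, fell from 6.30 to 1.01 CPM. Trappc9 and Peg13, which share a domain, fell by 0.61 and 1.71 on the log2 scale, Peg13 from 0.769 to 0.227 CPM. Kcnk9, a listed gene of the same domain, was too low to be tested, with 0, 2 and 3 reads against 8, 2 and 7. Peg12 fell by 0.57. Htr2a, a serotonin receptor gene, fell by 1.92. Peg13 and Htr2a passed the filter on low counts through their knockout libraries, and are counted among the lower genes of this list.

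**Figure D4:**
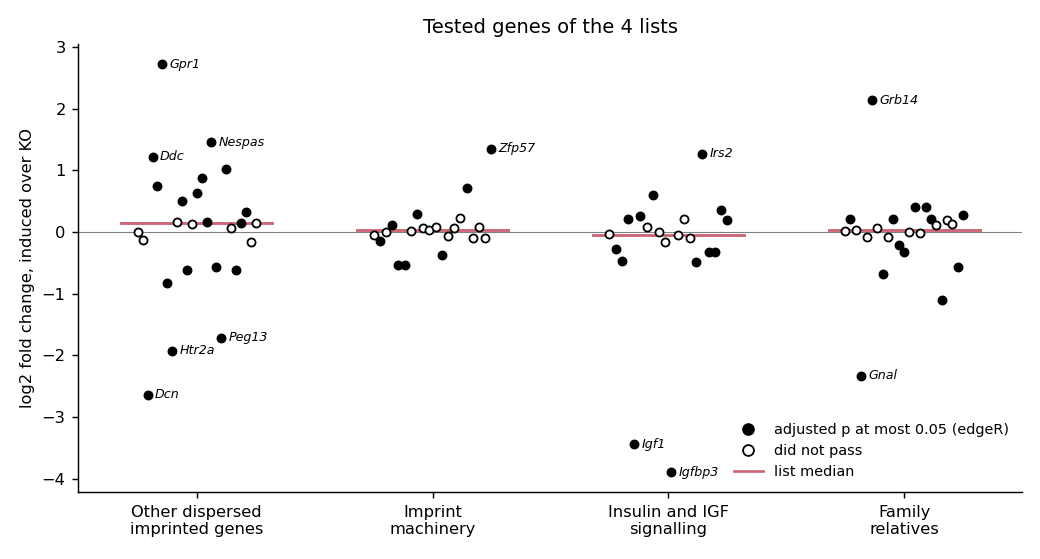
Log2 fold change, induced over KO, of the tested genes of 4 lists, with filled points for an adjusted p of at most 0.05 (edgeR), open points for genes that did not pass, and a red line at each list median. The medians lie between -0.04 and 0.15, with genes such as Gpr1, Zfp57, Igfbp3 and Grb14 far from them.

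Genes for setting and keeping imprints included rises and falls. Of 22 listed 20 were tested and 8 passed (40.0%, against 62.6%), 4 higher and 4 lower, with a median of 0.03. Zfp57, the zinc finger gene whose product holds methylation at imprinting control regions, was at 101.2, 114.4 and 92.2 CPM in the knockout and 265.7, 261.3 and 256.4 CPM in the induced libraries. Each induced library was well above each knockout library (log2 fold change 1.35, SE 0.0597, edgeR adjusted p = 2.71e-13). Tet3, a demethylating oxygenase gene, rose from 29.7 to 49.1 CPM. The de novo methyltransferase genes Dnmt3a and Dnmt3b fell from 218.1 to 149.9 CPM and from 228.3 to 158.7 CPM. Dnmt1 and Trim28 were picked after their values were seen. Dnmt1, the maintenance methyltransferase gene, rose by 0.12 on the log2 scale (adjusted p = 0.0196), a call that was lost without knockout replicate 1 or 2 or induced replicate 1. Trim28, the partner of ZFP57, did not pass at -0.10 (adjusted p = 0.0664), and passed without induced replicate 3 (adjusted p = 0.0247).

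Genes of insulin and IGF signalling, on which Grb10 and Igf2r act, changed in both directions. All 20 were tested and 13 passed (65.0%, against 62.6%), 6 higher and 7 lower, with a median of -0.04. Igfbp3, a secreted IGF binding protein gene, fell from 1180 ± 30.8 to 79.2 ± 8.08 CPM (SD, n = 3), which is -3.89 on the log2 scale (edgeR adjusted p = 4.1e-21). The ligand gene Igf1, which passed the filter on low counts through its knockout libraries, fell from 7.41 to 0.684 CPM. Fibroblasts also express both, and the fibroblast markers summed to 857.2 to 1013 CPM in the knockout and 655.7 to 839.8 CPM in the induced libraries; their part in these falls was not tested. Irs2, an insulin receptor substrate gene, rose from 84.8 to 204.7 CPM and Igf2bp2, an RNA binding protein gene, from 190.0 to 288.0 CPM. The receptor gene Igf1r rose by 0.26, Foxo3 by 0.21 and Shc1 by 0.20 on the log2 scale.

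Relatives of the members outside imprinting went both ways. Of 23 tested, 13 passed (56.5%, against 62.6%), 7 higher and 6 lower, with a median of 0.04. Grb14 and Grb7, the adaptors most like Grb10, went apart: Grb14 rose from 1.91 ± 0.157 to 8.42 ± 0.0874 CPM (SD, n = 3), which is 2.14 on the log2 scale (edgeR adjusted p = 5.67e-11) and Grb7 fell from 13.2 to 8.24 CPM. The sum of these levels stayed far below the 689.4 CPM of Grb10 in the knockout group. Gnal, the olfactory relative of Gnas, fell from 9.19 to 1.83 CPM. Among transporter genes of the Slc38 family, Slc38a10 rose by 0.40 and Slc38a9 fell by 0.57 on the log2 scale, and Slc38a5 fell from 4.22 to 1.98 CPM. Plagl2 did not pass, at 58.3 and 58.1 CPM, while Plag1 fell by 0.33; this call was lost without knockout replicate 2 (log2 fold change -0.22), induced replicate 1 (-0.30) or induced replicate 3 (-0.28). Sfmbt1 rose by 0.40, in the direction opposite to Sfmbt2, Snrpb by 0.27, as Snrpn was higher, and M6pr, the other mannose 6-phosphate receptor gene, fell by 0.21, where Igf2r was higher.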

How the data were processed

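Poly(A) RNA libraries made with a stranded kit were compared, 3 labelled Mixl1 KO and 3 labelled Mixl1 induced, grouped and numbered by their titles. The authors deposited raw read counts per gene in unstranded, sense and antisense columns. Per the submitters' processing notes, bcl2fastq, STAR, DESeq2 and the mm10 genome were used. Their versions and the annotation release: not given in the sources used here. Of the columns, the antisense column, which held 96.2% to 96.3% of stranded gene reads, was used, with the others beside it for Gnas, Nespas and Airn. Rows naming no gene (15.1% to 17.6% of reads) were left out. The authors also deposited a DESeq2 table with, per the file headers, a mean normalised count (a signal value), a log2 fold change and its error, a Wald score, p-values and a −log10 of the adjusted p.

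Identifiers were matched to GENCODE M21 (55230 of 55471). Counts were fitted with edgeR 4.0.16 in R 4.3.3 on genes passing filterByExpr, with TMM scaling and a robust quasi-likelihood model with group as its only term. The two-sided test was adjusted over all 15091 genes by Benjamini-Hochberg, with 0.05 as the threshold. Standard errors are the fold change over the root of F, with a median of 0.0837. For Grb10 this form gave a smaller error than DESeq2 or limma-voom. On simulated data, 189 of 200 genes changed 2-fold among 14853 were recovered, with 10 false calls. In the data 62.6% of tested genes passed, so the simulation does not check the scaling or the error rate at that share. Between replicates, chi-square over its degrees of freedom was 2.25 to 5.18, more than sampling noise. Each library was treated as its own sample, though this spread does not show that they were separate cultures. DESeq2 1.42.0 and limma 3.58.1 were among the alternatives.

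The members and lists were chosen with earlier results of these data known. Named were all members, up to 4 genes per list with the smallest p, those against the direction of most called genes of a list, the nearest tested neighbour on each side, imprinted neighbours, and 8 fixed relatives. Other tested genes picked on their values are marked. The values of 1 gene are not reported here.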

Additional observations from a re-analysis of the deposited data

How the results depend on the processing

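The counts of calls and the values of the members and of the named genes were recomputed with other scaling (the size factors of DESeq2, upper quartile), with a filter of 1 CPM in 3 libraries and with none, on unstranded counts, with a replicate block, without each library in turn, with DESeq2 and limma-voom as the test, and, for counts of calls, an adjusted p of 0.01. The count of genes called over all genes ranged from 7945 to 9932, and those of the 5 lists stayed within 1.5 times of the values given. The number of members with an estimated fold of at least 2 was 4 or, with no filter on low counts, on unstranded counts or with DESeq2, 5. Of the 9 members tested, only Gnas changed direction, with a log2 fold change of 1.73 on unstranded counts. The estimate for Airn, which rests on 1 induced read, ranged from -8.30 without induced replicate 2 to -5.60 on unstranded counts. Slc38a4 stayed between -11.19 and -10.59 and Grb10 between -7.73 and -7.68. The call of Plag1 was also lost with DESeq2 (adjusted p = 0.0531), and Zim1 passed without knockout replicate 3 (log2 fold change -0.24, adjusted p = 0.0368). Mas1 ranged from -4.24 to -3.14 when 1 library was left out. Dnmt1 lost its call without knockout replicate 1 (adjusted p = 0.0816), knockout replicate 2 (0.0686) or induced replicate 1 (0.0566). Trim28 passed with upper-quartile scaling (adjusted p = 0.0386), the 1 CPM filter (0.0479), the replicate block (0.0347), limma-voom (0.0415) and without induced replicate 3 (0.0247). The deviations of libraries with the same replicate number correlated at -0.0026, 0.0463 and 0.0398, and not every library correlated best with its own number. With a replicate block 9647 genes were called, against 9450 without it. The labels do not say whether the numbers pair the samples, and these values do not decide it. Depth limits Plagl1, Airn and Slc38a4 in the induced group, where reads per library were 6 or fewer.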
